A study of Mus musculus with 6 samples.

Results

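Genes of the cell cycle and mitosis were compared between undifferentiated mouse embryonic stem cells (mESCs) with and without huntingtin. They form a list of 43 that comprises cyclins, cyclin-dependent kinases (Cdks) and their inhibitors, Cdc25 phosphatases, spindle checkpoint genes, mitotic kinases, spindle proteins and condensin subunits, together with securin (Pttg1) and its partner separase (Espl1). All 43 were among the 23412 genes of the expression table. Of these, 42 were tested, since their mean over the 6 libraries was at least 5 normalized counts, as it was for 14276 genes in all. Cdkn2c, the gene left out, which encodes a Cdk4 and Cdk6 inhibitor, was counted with 3, 1 and 0 reads in the wild type libraries and with 2, 4 and 1 in the Htt-null ones.

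R1 mESCs are a wild type 129Sv line, and HN mESCs are the Htt-/- line made from it by removing the Htt promoter and exon 1 on both alleles. Both lines were grown undifferentiated, and RNA of each was collected on 3 dates, which gave 3 libraries per line. By the paper's methods, the medium of both held leukemia inhibitory factor and inhibitors of the kinases MEK and GSK3 and of growth factor receptors. Replicates of the same number in the 2 lines share a date. Each genotype is represented by only 1 line, so a difference between lines cannot be told apart from a difference between genotypes. The p-values concern the spread between these collections only. The fits estimate that spread partly from other genes, so a p-value does not rest on the collections of 1 gene alone.

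The cell cycle is driven by Cdks, which act only when bound to a cyclin: D and E cyclins act in G1 and at the start of DNA replication, and A and B cyclins lead the cell into mitosis. During mitosis the spindle checkpoint holds back the anaphase-promoting complex until all chromosomes are attached. The complex, with its activator Cdc20, then marks securin and cyclin B for destruction, and separase, freed from securin, cuts the cohesin that holds sister chromatids together. Embryonic stem cells divide rapidly with a short G1. Huntingtin has been linked to division through dynein and dynactin, motor proteins that help to orient the mitotic spindle.

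Pttg1 was the member with the largest difference between the lines, and Espl1 encodes the partner of securin in the cell. The bases before the RefSeq start sites of both are therefore shown. They are RefSeq sequence of the C57BL/6J reference (GRCm38.p6), written 5′ to 3′ on the strand of the gene. The Pttg1 stretch is chr11:43425982-43426173 on the minus strand and ends at the last base before the RefSeq start. The Espl1 stretch is chr15:102296043-102296292 on the plus strand and likewise ends just before its start. Capitals mark a CCAAT box, read here on the opposite strand, and TTTGAA, the core of the cell cycle homology region (CHR), an element of many promoters that are active late in the cell cycle.
Pttg1: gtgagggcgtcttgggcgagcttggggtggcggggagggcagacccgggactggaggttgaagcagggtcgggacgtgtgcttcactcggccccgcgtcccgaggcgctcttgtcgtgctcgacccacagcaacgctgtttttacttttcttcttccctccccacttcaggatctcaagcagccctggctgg
Espl1: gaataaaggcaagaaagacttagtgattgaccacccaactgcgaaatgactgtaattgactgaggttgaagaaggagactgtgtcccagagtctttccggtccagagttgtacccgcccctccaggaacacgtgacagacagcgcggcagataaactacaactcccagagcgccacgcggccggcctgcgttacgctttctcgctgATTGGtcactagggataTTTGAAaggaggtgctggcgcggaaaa
The CCAAT box of Espl1 began 44 bases and its CHR core 27 bases before the RefSeq start. GENCODE starts Espl1 at chr15:102296266, the first base of the CHR core. The last 27 bases shown for Espl1 thus lie within the gene by GENCODE. GENCODE places some Pttg1 starts further upstream, so the Pttg1 stretch lies within the gene as GENCODE outlines it (chr11:43420250-43426251), and no match was found in it. The absence of these letters from this window says nothing of whether a factor acts on Pttg1.

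Depth was modest, with 1640391 to 3866717 reads counted on genes per library. Htt served as the check of the labels. Its normalized counts were 230, 257 and 199 in R1 replicates 1 to 3 and 18.3, 58.1 and 54.2 in HN, with no overlap between the lines and a log2 fold change of -2.52 (limma, adjusted p = 0.0141), and it did not pass when R1 replicate 1 was left out (log2 fold change -2.52). The part of Htt after exon 1 is still present in HN cells, so reads there need not be 0. Pou5f1, which encodes the pluripotency factor Oct4, was at 2035 to 3460 in R1 and 1994 to 3597 in HN. The summed level of 10 embryonic stem cell markers was 15328 to 21757 in R1 and 17056 to 23563 in HN, overlapping ranges. The sum does not show how single markers differed: none passed without the block, but with it 5 of 10 were higher in HN (Nanog, Esrrb, Klf4, Tfcp2l1 and Dppa5a) and 2 lower (Zfp42 and Utf1), or 70%, against 9.48% of all genes. Their log2 fold changes ran from -1.06 to 0.56, and the libraries of 5 of 10 did not overlap between the lines. The part of these markers in the results for the cell cycle genes was not tested.

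The mRNA of securin, the inhibitor and chaperone of separase, was lower in HN mESCs, while its protein was not measured. Pttg1 was at 286, 233 and 446 normalized counts in R1 replicates 1 to 3 and at 80.3, 61.7 and 110.5 in HN. Every R1 library lay above every HN library. The mean was 322 ± 111 (SD, n = 3) in R1 and 84.1 ± 24.6 (SD, n = 3) in HN, 3.82-fold lower in HN. Within dates, R1 exceeded HN by 3.57-fold, 3.78-fold and 4.04-fold. The log2 fold change, HN minus R1 on the scale of log2(normalized count + 1), was -1.91 with a standard error of 0.28 (limma, adjusted p = 0.0143). With the collection date as a block, a term that takes out what libraries of the same date share, the standard error was 0.13 and the adjusted p 2.40e-13 (limma). Much of this error is taken from other genes, so the size of that p-value does not measure the spread of Pttg1 itself between dates. Counts of reads gave the same direction, with an adjusted p of 0.0320 by edgeR and 8.28e-07 by DESeq2. The values rest on 269 to 331 reads in R1 libraries and 66 to 102 in HN libraries.

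No exon of Pttg1 overlaps another annotated gene, and 0% of the stretches of 50 bases in its transcripts occur in another gene. In the fits without a block, its adjusted p rose to 0.107 when R1 replicate 1 was left out, to 0.125 when HN replicate 1 was left out and to 0.0530 after quantile normalization. Its log2 fold change was between -2.12 and -1.65 in all 24 alternative fits.

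Markers of other cell types gave 0 calls without the block. The summed level of 6 primitive endoderm markers was 282 to 380 in R1 and 545 to 697 in HN, and Lama1, a laminin gene, gave most of it (244 to 295 in R1 and 477 to 646 in HN). The more defining Gata6 was at 8.14 to 40.4 in R1 and 8.51 to 42.2 in HN. For 6 trophoblast markers the sums were 187 to 224 in R1 and 252 to 313 in HN. Of each of these lists 1 gene of 6 tested passed with the block (16.7%, against 9.48% of all genes), Lama1 and Eomes, both higher in HN. The primitive endoderm list had a median log2 fold change of 0.14 and members from -0.74 to 1.04. The sums of 6 fibroblast markers (37.0 to 101 in R1, 12.1 to 66.1 in HN) and of 7 mesoderm and neural markers (274 to 362 and 207 to 311) overlapped between the lines. With the block, 1 of 4 tested fibroblast markers was lower in HN (Thy1, log2 fold change -1.54), and of 6 tested mesoderm and neural markers T was higher (1.21) and Tubb3 lower (-0.76). None of the primitive endoderm or trophoblast markers was at 0 in any library, and Postn and Dcn, fibroblast genes, were at 0 in 1 library each. Their part in the result for Pttg1 was not tested, and with bulk RNA fewer cells of a type cannot be told apart from less RNA per cell.

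The genes of separase and Cdc20 did not pass the test. Espl1, which encodes the protease that securin holds inactive, was at 375, 368 and 255 normalized counts in R1 and 366, 424 and 283 in HN. The lines overlapped, and both were lowest in replicate 3. The log2 fold change was 0.11, with a 95% interval of -0.11 to 0.32 in the blocked fit (limma, adjusted p = 0.633). Its sign changed when R1 replicate 3 or HN replicate 2 was left out. Cdc20, the activator that directs the anaphase-promoting complex to securin, had a log2 fold change of 0.054, with a blocked interval of -0.14 to 0.25. On the scale of normalized counts per kb of exon, Pttg1 was at 161 in R1 and 42.1 in HN, while Espl1 was at 38.0 and 40.9. Length here is the union of all annotated exons of a gene, 2000 bases for Pttg1 and 8749 for Espl1. On this scale the mean level of Pttg1 was several times that of Espl1 in R1 and close to it in HN. The transcripts in these cells may be shorter than the union, so these values do not give a ratio of molecules.

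**Figure D1:**
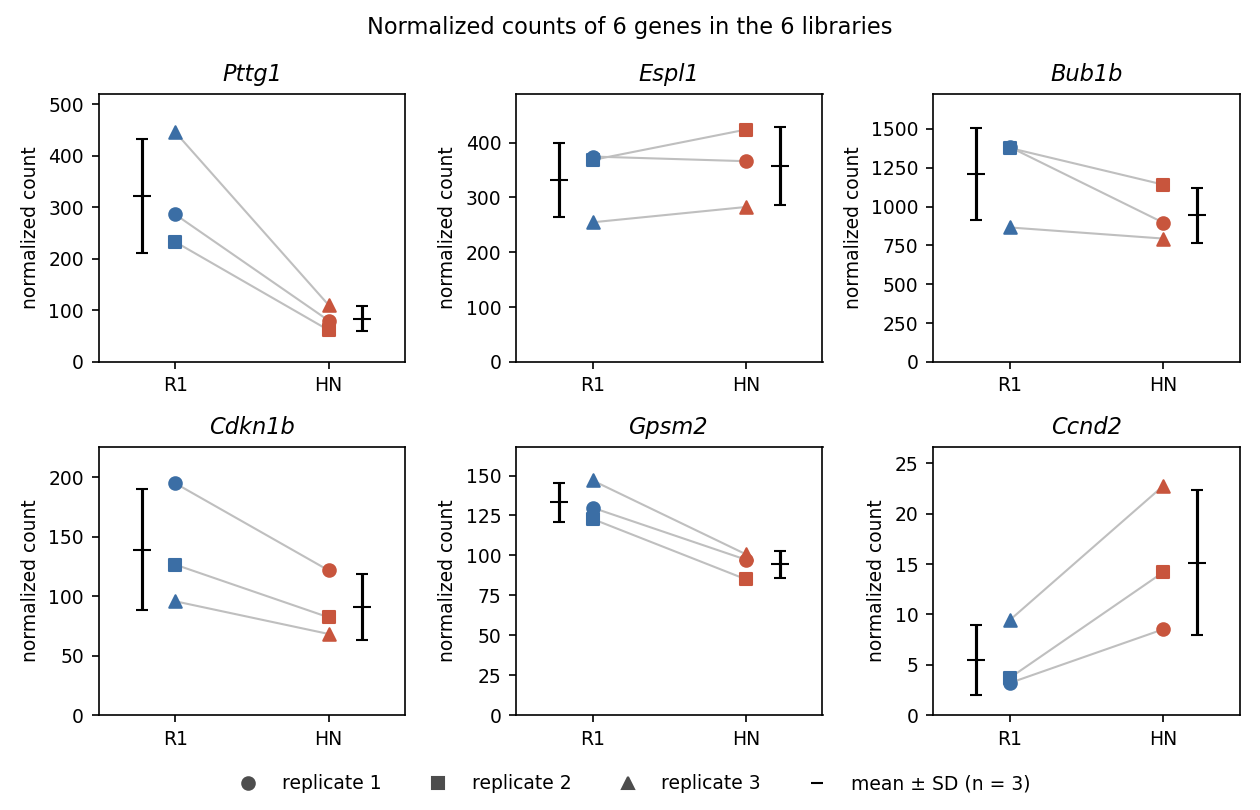
Normalized counts (y axis, from 0) of 6 genes in each library of R1 (blue) and HN (red). Symbols give the replicate, grey lines join libraries of the same date, and black bars are the mean ± SD (n = 3). Pttg1 and Gpsm2 show no overlap between the lines, and Espl1 shows no common direction over the dates.

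Among all 42 tested members, 1 fell and 0 rose in the fit without a block (2.38%), against 0.245% of all 14276 genes in that fit (0.119% higher and 0.126% lower in HN). The gene was Pttg1, which was also the only member that passed with a log2 fold change above 1 in size. It alone passed by edgeR and by DESeq2 without the block as well, against 0.238% and 0.785% of all genes. Pttg1 was put on the list by name, and the paper had already reported it among the most down-regulated genes of these libraries. Its call was thus known when the list was made, and these shares say nothing of cell cycle genes as a set. At an unadjusted p under 0.05, 2 of 42 passed, Pttg1 and Gpsm2, against 5.91% of all genes. With the block, 1 member rose and 4 fell, 11.9% of members, while 9.48% of all genes passed. The share of cell cycle genes that differed with the block was therefore near that of genes at large. By direction, 2.38% of members rose against 5.46% of all genes, and 9.52% fell against 4.02%. The 4 that fell include Pttg1, so the same limit holds for that share. Past a log2 fold change of 1 with the block were Pttg1 and Ccnd2, against 1.95% of all genes. edgeR with the block passed the same 5 members as limma, 1 higher and 4 lower, against 11.2% of all genes (6.44% higher and 4.8% lower, and 1.99% past a log2 fold change of 1). DESeq2 with the block passed only Bub1b and Pttg1, both lower, against 3.59% of all genes (1.25% lower). DESeq2 gave no adjusted p for Ccnd2, and a gene without an adjusted p counts as not called in its shares.

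The calls with the block changed in blocked fits without 1 date. These fits hold fewer libraries, so a call can be lost through a larger standard error alone. Without replicate 2, Cdkn1b had a log2 fold change of -0.58 (standard error 0.21), against -0.59 (0.14) with all dates. Bub1b moved more, to -0.20 without replicate 1, against -0.34 with all dates. Dependence on dates and loss of libraries were not told apart. Without replicate 1 of both lines, Ccnd2, Cdc25a, Cdkn1b, Gpsm2, Plk1 and Pttg1 passed. Without replicate 2, Pttg1 was the only member that passed, and without replicate 3 the members were Bub1b, Ccna2, Cdkn1b and Pttg1. Pttg1 was the only member in all of these fits. For 3 members (Pttg1, Gpsm2 and Cenpe, 7.14%) every library of one line was above every library of the other, against 10.8% of all genes.

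The fitted differences were mostly small. The log2 fold change was within 0.2 of 0 for 32 members, between 0.2 and 0.6 in size for 8, and above 1 in size for only 2, Pttg1 and Ccnd2. It was positive for 25 members and negative for 17, and its median was 0.050, compared with -0.010 over all genes tested. With the block, the 95% interval lay wholly within 0.5 of 0 on the log2 scale for 32 of 42 members, while 33.3% of all genes had an interval this narrow and this close to 0. It lay within 1 of 0 for 40 of 42, against 71.2% of all genes. The width of an interval depends on the number of reads, and only 7659 of the 14276 genes had a mean of at least 50. Members were not matched to genes of like level, so these shares do not show that they differed less than other genes. Over the 3 dates, 10 members were higher in HN each time, 6 were lower each time, and 26 changed direction. The same shares over all genes were not counted, so these numbers only describe the members.

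**Figure D2:**
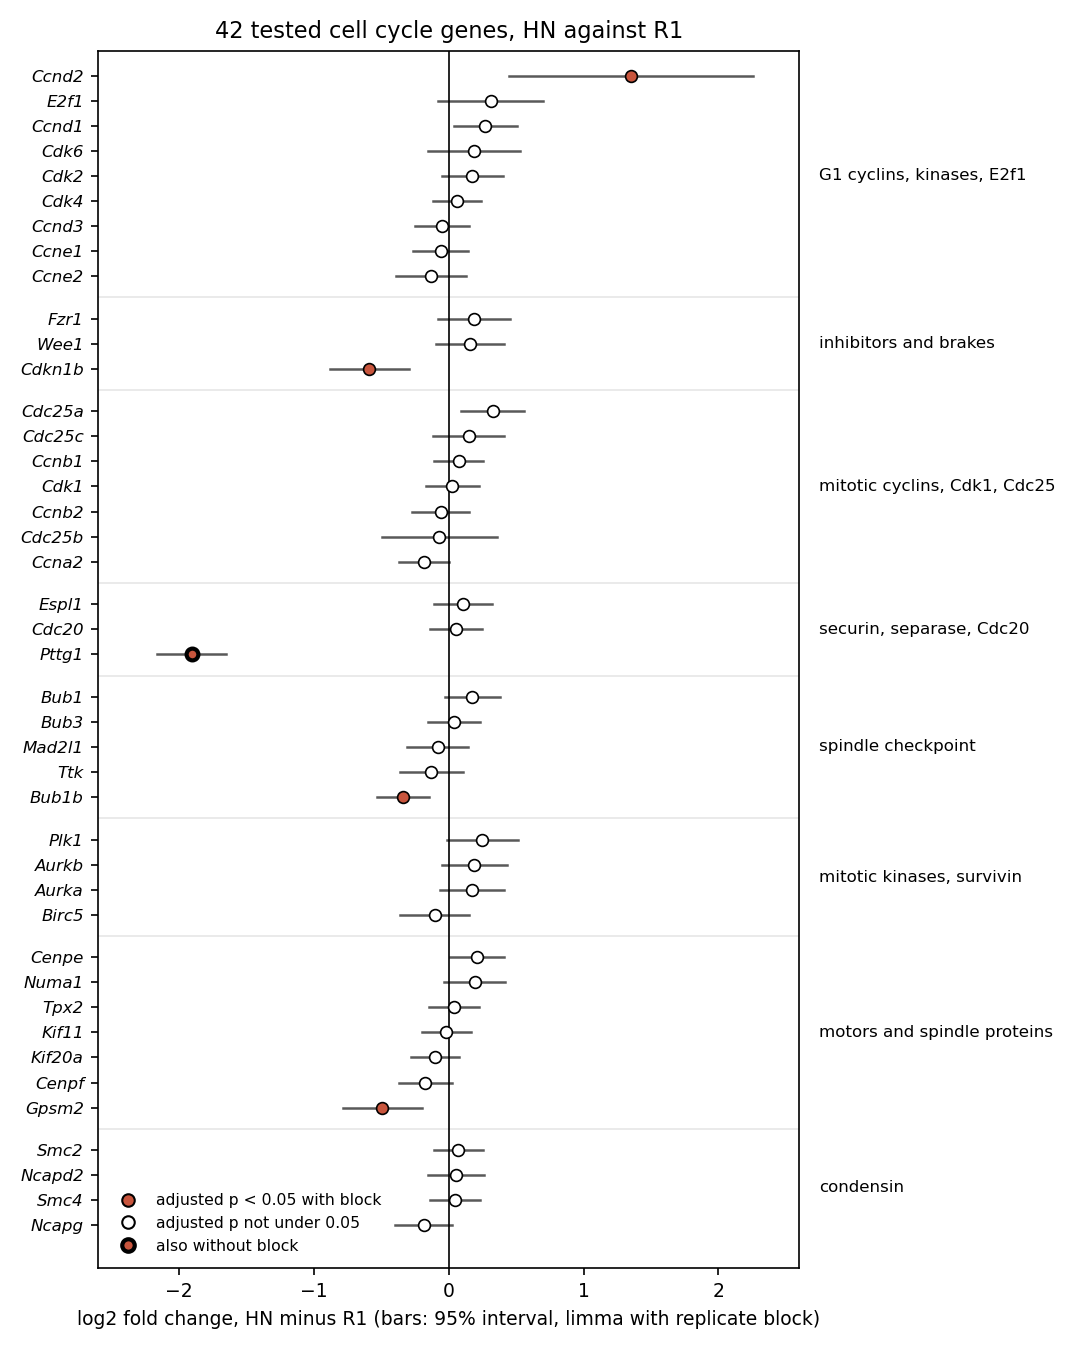
Log2 fold change (x axis, HN minus R1) of the 42 tested members, grouped by role, with 95% intervals from limma with the replicate block. Filled points passed with the block (Ccnd2, Cdkn1b, Pttg1, Bub1b and Gpsm2), and the thick outline marks Pttg1, which also passed without it. Other members lie between -0.19 and 0.32.

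In the G1 group (Ccnd1, Ccnd2, Ccnd3, Ccne1, Ccne2, Cdk2, Cdk4, Cdk6 and E2f1), 1 of 9 rose with the block and none passed without it. Ccnd2, which encodes cyclin D2, was at 3.19, 3.70 and 9.43 normalized counts in R1 and 8.52, 14.2 and 22.7 in HN. HN was higher on each date, although the lowest HN value was below the highest R1 value. Ccnd2 had a log2 fold change of 1.35 (limma, adjusted p = 0.886, and 0.0490 with the block). These values rest on 3, 5 and 7 reads in R1 and 7, 20 and 21 in HN, and 6.31% of its 50-base stretches occur in genes on the opposite strand. Cyclin D2 mRNA was scarce, at 0.58 per kb of exon in R1 and 1.61 in HN. Ccnd1, for cyclin D1, was at 57.3 and 66.9, and Ccnd3, for cyclin D3, at 57.9 and 55.9. Ccnd1 and Ccnd3 share 21.6% and 5.39% of their 50-base stretches with other genes, so their levels are less certain too. Of the other G1 genes, E2f1, a transcription factor for S phase genes, had the largest difference, 0.31, and Ccnd1 had 0.27 (limma with the block, adjusted p = 0.379 and 0.151). Cdk4, the kinase partner of D cyclins and the member with the highest level per kb, was at 481 in R1 and 491 in HN. About 17.0% of its 50-base stretches occur in other genes.

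Among the inhibitors and brakes, Cdkn1b fell with the block. It encodes p27, an inhibitor of cyclin E and cyclin A kinases. Cdkn1b was at 195, 127 and 95.7 normalized counts in R1 and 122, 82.2 and 68.2 in HN. R1 was higher on every date, by 1.60-fold, 1.54-fold and 1.40-fold, but the ranges of the lines overlapped. Its log2 fold change was -0.59 (limma, adjusted p = 0.949, and 0.00585 with the block). Wee1, the kinase that restrains Cdk1, and Fzr1, the activator of the anaphase-promoting complex in G1, were at 0.16 and 0.19 on the log2 scale and passed in neither fit.

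None of the 7 mitotic cyclins, Cdk1 and Cdc25 genes passed in either fit. Cdc25a, a phosphatase that activates Cdks, had the largest difference of the group. It was at 239, 314 and 163 normalized counts in R1 and 258, 401 and 233 in HN. HN was higher on each date within overlapping ranges (log2 fold change 0.32; limma with the block, adjusted p = 0.0682). Cdk1, the kinase that drives mitosis, had a log2 fold change of 0.027 with a blocked interval of -0.17 to 0.22. Its partners Ccnb1 and Ccnb2 were at 0.073 and -0.059, and Ccna2 was at -0.18 (limma with the block, adjusted p = 0.234). In the annotation, 23.4% of the 50-base stretches of Ccnb1 occur in other genes, mainly its pseudogenes, so its counts are less certain.

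Of the 5 spindle checkpoint genes, Bub1b fell with the block. It encodes BubR1, part of the complex that inhibits Cdc20. Bub1b was at 1383, 1377 and 865 normalized counts in R1 and 897, 1141 and 794 in HN. The difference was uneven over dates, 1.54-fold in replicate 1, 1.21-fold in replicate 2 and 1.09-fold in replicate 3, and the ranges overlapped. Its log2 fold change of -0.34 passed only with the block (limma, adjusted p = 0.0172). Bub1, Bub3, Mad2l1 and Ttk, the other checkpoint genes, had log2 fold changes from -0.13 to 0.17 and passed in neither fit.

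The mitotic kinases Aurka, Aurkb and Plk1 and the survivin gene Birc5 did not pass in either fit. Plk1, a kinase of entry into and exit from mitosis, had the largest difference. It was at 223, 250 and 146 normalized counts in R1 and 204, 283 and 235 in HN. The lines overlapped and HN was higher on 2 of 3 dates (log2 fold change 0.25; limma with the block, adjusted p = 0.270).

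Of 7 motors and spindle proteins, Gpsm2 fell with the block. It encodes LGN, which binds NuMA and recruits dynein to the cell cortex to orient the spindle. Gpsm2 was at 130, 123 and 147 normalized counts in R1 and 97.3, 85.1 and 100.7 in HN. All R1 libraries were above all HN libraries, by 1.33-fold to 1.46-fold within dates. Gpsm2 had a log2 fold change of -0.49 (limma, adjusted p = 0.769, and 0.0223 with the block). About 5.19% of its exon bases overlap Clcc1 on the opposite strand, and a count that ignores strand cannot separate them. Numa1, its binding partner, was at 0.19 on the log2 scale and passed in neither fit. Cenpe, a kinetochore motor, was at 402, 445 and 389 normalized counts in R1 and 449, 521 and 461 in HN. Its lines did not overlap, but the difference of 0.21 did not pass (limma with the block, adjusted p = 0.209). Cenpf, Kif11, Kif20a and Tpx2 had log2 fold changes from -0.18 to 0.039. Kif20a shares 25.2% of its stretches with Cdc23 on the opposite strand.

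None of the condensin subunits passed in either fit. Ncapg, a subunit of condensin I, was at 530, 498 and 441 normalized counts in R1 and 406, 431 and 449 in HN, overlapping ranges (log2 fold change -0.19; limma with the block, adjusted p = 0.299). The other subunits, Ncapd2, Smc2 and Smc4, had log2 fold changes of 0.052, 0.071 and 0.049.

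Levels per kb of exon spanned a wide range. In R1, Cdk4, Cdc20, Ccnb2, Kif20a and Ccna2 were the highest, at 481, 406, 380, 328 and 296 normalized counts per kb, and they held the same order in HN. Cdkn2c, Ccnd2 and Cdk6 were the lowest in both lines. Pttg1 went from rank 12 of 43 in R1 to rank 30 in HN. The order of genes depends on their annotated exon lengths.

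**Figure D3:**
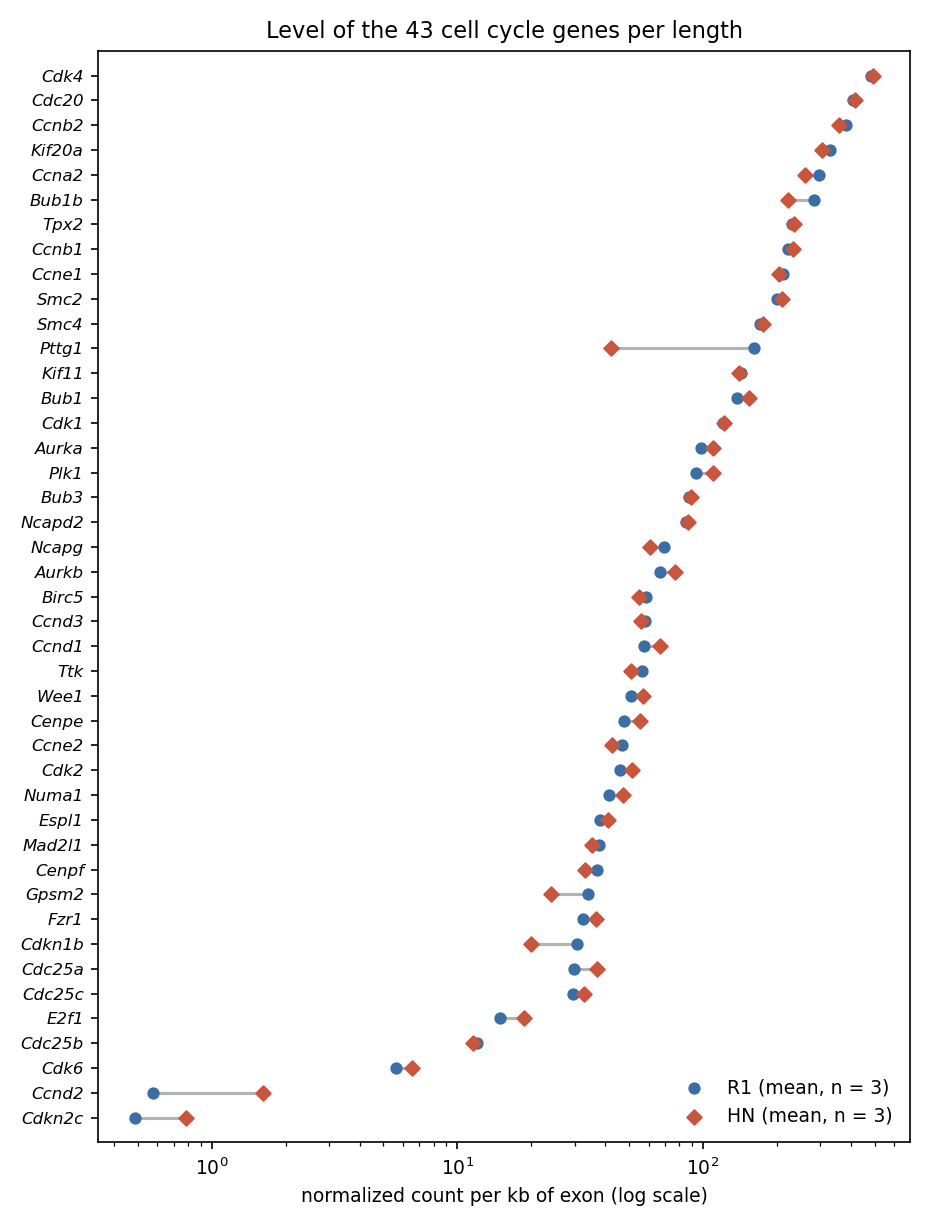
Mean normalized count per kb of exon (x axis, log scale, n = 3 per line) of the 43 members in R1 (blue circles) and HN (red diamonds), in the order of the R1 level. Pttg1 has the widest gap, and Cdkn2c and Ccnd2, at the bottom, rest on very few reads.

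Members also differed between the dates of collection. Of 42 tested members, 24 were lowest in replicate 3 in both R1 and HN (57.1%), compared with 29.5% of all genes. Members highest in replicate 3 of both lines numbered 4 (9.52%, against 25.6% of all genes), and these were Ccnd2, Cenpf, Gpsm2 and Pttg1. On the log2 scale, the median of replicate 3 minus the mean of replicates 1 and 2 was -0.43 over the members in R1 and -0.21 in HN, against -0.087 and -0.047 over all genes. Members were not matched to genes of like level here either, so these values do not show a shift particular to cell cycle genes. Fzr1 had the lowest shift in both lines (-1.06 in R1 and -0.90 in HN), followed by Cdk4 in R1 (-0.97) and Ccnd3 in HN (-0.77). Pttg1 shifted the other way, by 0.79 in R1 and 0.64 in HN.

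The replicate 3 libraries stood apart in other measures too. They held the most genes with a read (20675 in R1 and 20542 in HN, against 18133 to 19083 in the others) and the lowest sum of embryonic stem cell markers in each line (15328 and 17056). Fibroblast markers summed to their highest there (101 and 66.1). Of 6 primitive endoderm markers, 5 were highest in replicate 3 of both lines and Lama1 was lowest, so that their sum was highest there in R1 (380) but not in HN (603, against 697 in replicate 1). R1 replicate 3 also had the fewest reads. The part of these in the shift of the cell cycle genes was not tested. Pttg1 also passed without replicate 3 of both lines, with and without the block.

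**Figure D4:**
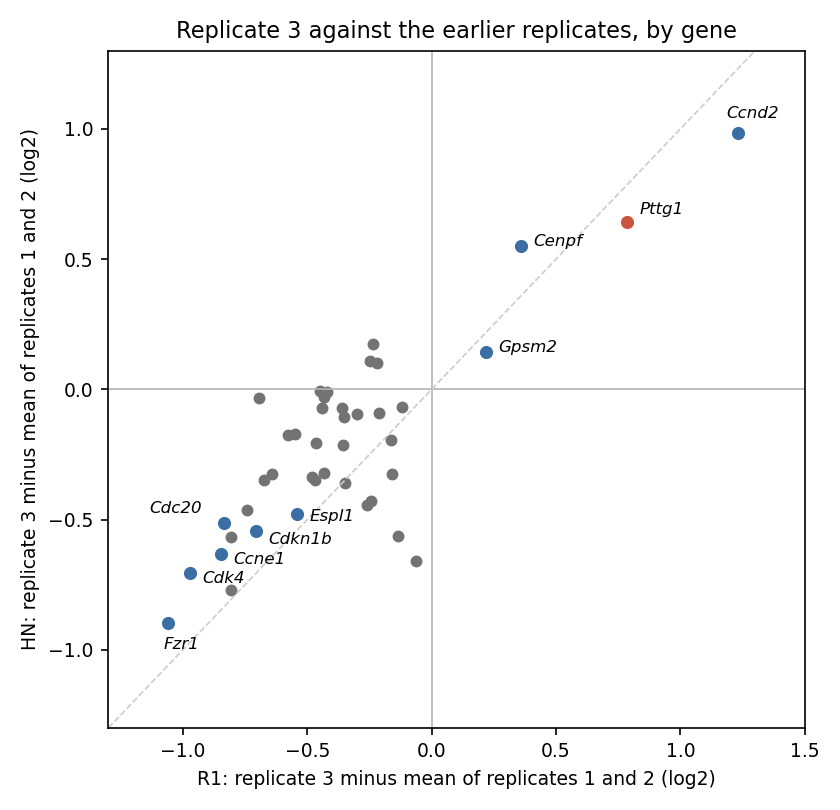
Shift of each of the 42 tested members in replicate 3, as log2 of replicate 3 minus the mean of replicates 1 and 2, in R1 (x axis) and HN (y axis), with the line of equal shift dashed. Most members lie below 0 in both lines, and Pttg1 (red), Ccnd2, Cenpf and Gpsm2 lie above 0 in both.

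The other genes of these pathways were examined by lists that cover replication licensing and forks, the anaphase-promoting complex, cohesin, the kinetochore, the Rb and E2F factors with other Cdk inhibitors, spindle orientation and dynein, and further mitotic genes. All 118 were tested. None passed without the block, and 5 rose and 1 fell with it, which was 5.08% of the 118, against 9.48% of all genes. Replication licensing and the kinetochore list had 0 of 24 and 0 of 15. Wapl (listed as Wapal), which releases cohesin from chromosomes, was at 758, 880 and 671 normalized counts in R1 and 1046, 1048 and 986 in HN. All its HN libraries were above all R1 libraries (log2 fold change 0.42; limma with the block, adjusted p = 0.00188). Ube2c, the ubiquitin-conjugating enzyme of the anaphase-promoting complex, was at 510, 620 and 313 in R1 and 610, 735 and 503 in HN (0.40, adjusted p = 0.00934, limma with the block). It was higher in HN on each date within overlapping ranges, as were Cdkn1a, Dync1h1 and Nek2.

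Cdkn1a, which encodes the Cdk inhibitor p21, rose by 0.55 on the log2 scale (limma with the block, adjusted p = 0.0487), the opposite direction to Cdkn1b. The difference was uneven over dates, at 0.17, 0.46 and 1.01. It did not pass by edgeR (adjusted p = 0.0505) or DESeq2 (0.403) with the block, nor in the blocked limma fit without replicate 3 of both lines (log2 fold change 0.32, adjusted p = 0.334), and it was 0.19 without R1 replicate 3. Dync1h1, the dynein heavy chain, rose by 0.35, and Nek2, a centrosome kinase, by 0.38 (limma with the block, adjusted p = 0.0130 and 0.0398). E2f4, a repressor of cell cycle genes in quiescent cells, fell by 0.36 (limma with the block, adjusted p = 0.0263). Its difference was close to 0 in replicate 3, at -0.018, and -0.53 in each of replicates 1 and 2. Of these 6 pathway genes, DESeq2 with the block passed only Wapal and Dync1h1.

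The neighbours of Pttg1 were examined after its values had been seen. Within 500000 bases on either side, 9 other genes were in the table and 6 were tested. None passed in either fit (limma with the block, adjusted p from 0.0922 to 0.982). The nearest, Slu7, a splicing factor gene that lies 7493 bases away, was at 163, 192 and 236 normalized counts in R1 and 193, 227 and 297 in HN. Its log2 fold change was 0.27, the opposite sign to that of Pttg1. Ttc1, with -0.30, had the lowest of the 6.

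Of the 43 members, 33 had a RefSeq start window of 250 bases before to 50 after a start, 36 windows in all. The CHR core TTTGAA, searched on both strands, was in 16 of 36 windows (44.4%), against 17.9% of all 32851 windows. CCAAT on either strand was in 26 (72.2%, against 37.4%). An E2F motif, TTTCCCGC or TTTGGCGC on either strand, was in 4 (11.1%, against 1.56%). All 16 windows with the CHR core also held CCAAT, a pair found in 6.95% of all windows. The pair was present in Espl1, Gpsm2 and Bub1b, while Pttg1 held none of these letters and Cdkn1b held CCAAT only. In Bub1b the CHR core lay after the RefSeq start, at position 41. The Pttg1 window lies within the gene as GENCODE outlines it, so bases before its GENCODE start were not searched. The 4 members that fell with the block had no motif of the 3 in common. A match is a description of letters, not a site shown to be bound.

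**Figure D5:**
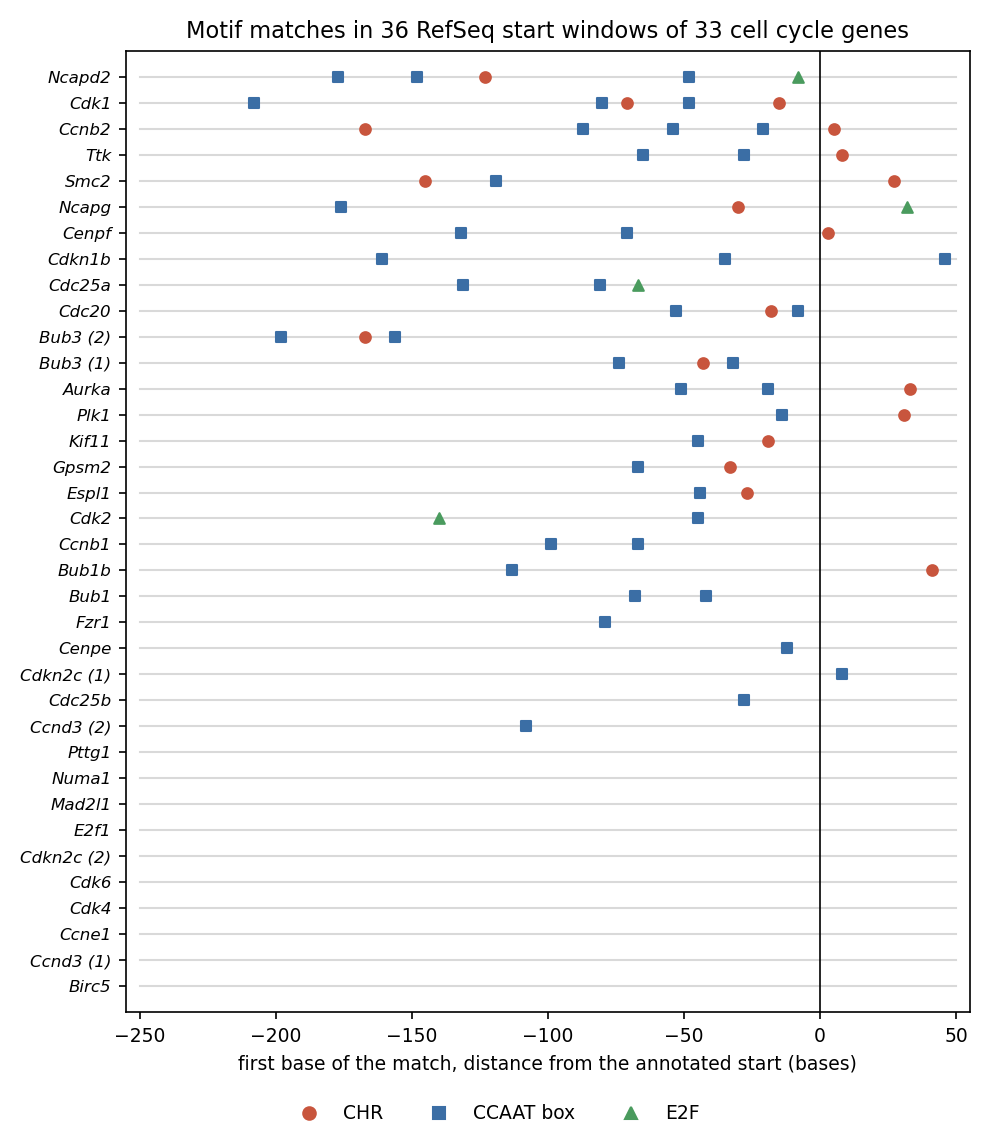
Position of each match to the CHR core (red circles), CCAAT (blue squares) and the E2F motif (green triangles) relative to the RefSeq start (x axis, bases; negative before the start) in 36 windows of 33 members, ordered by the number of matches. Espl1, Gpsm2 and Bub1b hold both CHR and CCAAT. The Pttg1 window, which lies within the gene as GENCODE outlines it, has no match.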

How the data were processed

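RNA-seq of R1 and HN mESCs (3 libraries per line) was analysed from the deposited gene table. The authors used STAR (mm10/GRCm38) for the paired-end reads, Picard for duplicate removal and HTSeq for counts on exons, and scaled libraries by DESeq2 size factors. The deposited signal is therefore a normalized count. Versions, gene annotation and strand setting are not given in the sources used here. The TruSeq v2 kit does not mark strand. Whole reads were recovered in 100% of values (tolerance 0.01 reads) and used for depth, edgeR and DESeq2. Intervals cover these samples only, and duplicates were removed without molecular identifiers. Unused columns of per-sample values numbered 0, and 27 rows carried a date in place of a gene name.

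Values were compared as log2(x + 1) with limma 3.58.1 (variance trend) in R 4.3.3 for genes with a mean of at least 5, and p-values were adjusted by the Benjamini-Hochberg method over 14276 genes. A gene passed at an adjusted p under 0.05. An exact permutation test of 3 against 3 libraries cannot give a two-sided p below 0.1 and was not used. The study names no block, so the fit without it is the one given first. The label descriptions give a collection date that replicates of the same number share, so numbers pair the samples. Deviations from the line means correlated by 0.25, 0.69 and 0.77 within dates and by -0.71 to 0.34 between dates. Since deviations sum to 0 in each line, positive values within dates push those between dates down. R1 replicate 1 correlated more with HN replicate 2 (0.34) than with HN replicate 1 (0.25), so for it the correlations do not show the pairing. The blocked result is given where it changes a call.

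Alternatives were the block, pseudocounts of 0.1 and 10, no filter, a higher minimum mean (50), quantile normalization, median centring, no variance trend, edgeR 4.0.16 and DESeq2 1.42.0 with and without the block, and fits without 1 library or without replicate 3. Blocked fits without each date and with other scalings were added after seeing the data. Fits were tested on simulated data. The members and gene lists were chosen with earlier results of these data known. Genes named with values were Htt, Pttg1, Espl1, members that passed with or without the block, the largest difference in each role group, and of each other list at most 2 that passed. Further members illustrate their group, and Cenpe, the markers named and the Pttg1 neighbours were chosen after their values were seen. Positions are from GENCODE M21 (GRCm38), and start windows are from RefSeq (GRCm38.p6). The study's other experiments were not analysed here.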

Additional observations from a re-analysis of the deposited data

How the results depend on the processing

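Pttg1 was lower in HN in all 24 alternatives and passed in 20. It was lost after quantile normalization (log2 -1.91), in limma without the variance trend (-1.91, where 0 of all genes passed) and without R1 replicate 1 or HN replicate 1, so members lower in HN, and members past a log2 fold change of 1, numbered 0 after quantile normalization and without the trend, and 0 to 1 over the fits without 1 library. With the replicate block, members higher and lower numbered 1 and 4, and 2 passed the fold limit. edgeR with the block gave 1, 4 and 2. DESeq2 with the block gave 2 lower. Among fits added after seeing the data, the block with quantile normalization gave 1 higher, 5 lower and 2 past the limit, with median centring 2, 4 and 2, and without replicate 1 of both lines 3, 3 and 2. Without replicate 3 the block gave 4 lower, and without replicate 2 Pttg1 alone. Other pathway genes that passed numbered 0 without the block, 6 with it, 10 by edgeR and 2 by DESeq2 with it, and 10, 9, 6, 1 and 6 with quantile normalization, median centring, and without replicates 1, 2 and 3 of both lines. The calls on Ccnd2, Cdkn1b, Bub1b and Gpsm2 thus rest on the block. The median log2 fold change of the members was -0.12 to 0.18 over the fits without 1 library, and -0.012 without replicate 3 of both lines. Espl1 was -0.075 without R1 replicate 3, -0.026 without HN replicate 2 and up to 0.27 in other fits. Of 42 members, 25 changed sign in at least 1 alternative, and the share of all genes that did so was not counted. The cause of these changes was not tested. At 1640391 to 3866717 reads per library, genes such as Ccnd2 and Cdkn2c rest on a few reads.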
